A study of Mus musculus with 6 samples.

Results

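Accessible chromatin at the nuclear genes of the mitochondrial respiratory chain and of the mitochondrial ribosome (mitoribosome) was examined in mouse liver. The members were the 149 peaks, of 22412 in the deposited ATAC-seq table, that the authors' annotation assigned to a gene symbol starting with Nduf, Sdha to Sdhd, Sdhaf, Uqcr, Cox and a digit, Atp5, Mrpl or Mrps. They comprised 83 peaks at 66 respiratory chain genes and 66 peaks at 54 mitoribosome genes. RefSeq lists 187 protein-coding mouse genes with such symbols, and the 120 with a peak were spread unevenly, with 26 of 41 complex I subunit genes but 2 of 8 complex III genes.

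ATAC-seq uses a transposase that cuts open chromatin and tags it for sequencing. The study compared 3 control liver samples, whose names give an adenovirus carrying EGFP (Ad-EGFP), with 3 liver samples with adenoviral overexpression of Dyrk1b (Ad-Dyrk1b), a protein kinase of the DYRK family. No strain, age, viral dose or time after infection was given in the labels used here. Nothing in the labels ties replicates to separate animals, and p-values therefore reflect only the variation among these samples, possibly technical. Nuclei were prepared from whole liver, in which fewer cells of a type and less accessibility per cell cannot be told apart.

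The respiratory chain passes electrons from NADH and succinate through complexes I to IV to oxygen and pumps protons, and complex V, the ATP synthase, uses the proton gradient to make ATP. Most subunits are encoded in the nucleus, while a small core comes from mitochondrial DNA and is translated by the mitoribosome, whose proteins are all nuclear. Liver depends on this machinery for gluconeogenesis, urea synthesis and fatty acid oxidation. Promoters of these genes are known for binding sites of NRF1, of GABP (an ETS family factor, also called NRF2), of YY1 and of Sp1.

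The promoter sequences of these genes were therefore read for 4 short motifs, from RefSeq windows on GRCm38.p6 that run from 250 bases before to 50 bases after an annotated start. Windows were found for 103 of the 120 genes by symbol (112 windows). The letters searched on both strands were GCGCATGC for the NRF1 core, CCGGAAG for ETS, AAGATGGC for YY1 and GGGCGGG for Sp1, and no motif contains another. Below are 5 windows, chosen because the peaks with the lowest p among all members belong to Sdhb, Mrpl33 and Cox10, because Ndufaf5 holds a full palindromic NRF1 site, and because in RefSeq Atp5j starts next to Gabpa, the gene of a GABP subunit. Capitals mark a motif on either strand and sequences run in the direction of the gene. The Sdhb window is chr4:140961021-140961320 on the plus strand, with the NRF1 core 54 bases before the start, ETS letters from base 6 after it and 3 Sp1 matches. The Ndufaf5 window is chr2:140170396-140170695 on the plus strand, and its NRF1 letters match on both strands, overlapping each other. Windows of Atp5g2, Cox6a1, Mrpl9, Mrpl39, Ndufaf4 and Uqcrc1 hold the same palindrome. The Cox10 window is chr11:64079423-64079722 on the minus strand, and its ETS, Sp1 and YY1 letters follow each other around the start. The Atp5j window printed is chr16:84834927-84835226 on the minus strand, with a YY1 and an ETS match. A further Atp5j window, chr16:84835576-84835875, holds Sp1 letters only. The Mrpl33 window is chr5:31613701-31614000 on the plus strand, with the NRF1 and ETS letters 1 base apart.
Sdhb: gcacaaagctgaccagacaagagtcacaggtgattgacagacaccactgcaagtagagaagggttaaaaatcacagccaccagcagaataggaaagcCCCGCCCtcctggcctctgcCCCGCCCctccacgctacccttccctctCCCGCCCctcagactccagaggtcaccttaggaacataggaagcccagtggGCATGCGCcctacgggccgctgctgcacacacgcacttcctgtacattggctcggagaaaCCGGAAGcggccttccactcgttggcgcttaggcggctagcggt
Ndufaf5: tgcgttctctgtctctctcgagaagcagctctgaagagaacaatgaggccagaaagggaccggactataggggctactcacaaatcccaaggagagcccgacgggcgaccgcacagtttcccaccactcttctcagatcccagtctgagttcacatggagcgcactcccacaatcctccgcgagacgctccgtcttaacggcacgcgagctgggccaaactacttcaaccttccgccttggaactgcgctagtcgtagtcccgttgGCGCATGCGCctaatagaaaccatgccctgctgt
Cox10: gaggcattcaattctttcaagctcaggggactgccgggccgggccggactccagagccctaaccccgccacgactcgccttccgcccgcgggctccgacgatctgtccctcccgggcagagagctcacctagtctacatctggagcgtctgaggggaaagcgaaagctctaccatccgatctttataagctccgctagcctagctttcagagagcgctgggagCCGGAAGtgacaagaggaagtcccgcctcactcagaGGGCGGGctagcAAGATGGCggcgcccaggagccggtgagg
Atp5j: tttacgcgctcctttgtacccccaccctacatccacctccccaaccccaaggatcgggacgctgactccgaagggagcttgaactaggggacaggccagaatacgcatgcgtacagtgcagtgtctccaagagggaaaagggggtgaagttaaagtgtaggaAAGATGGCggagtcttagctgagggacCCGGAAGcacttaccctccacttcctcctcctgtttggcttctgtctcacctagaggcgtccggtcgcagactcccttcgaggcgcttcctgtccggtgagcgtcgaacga
Mrpl33: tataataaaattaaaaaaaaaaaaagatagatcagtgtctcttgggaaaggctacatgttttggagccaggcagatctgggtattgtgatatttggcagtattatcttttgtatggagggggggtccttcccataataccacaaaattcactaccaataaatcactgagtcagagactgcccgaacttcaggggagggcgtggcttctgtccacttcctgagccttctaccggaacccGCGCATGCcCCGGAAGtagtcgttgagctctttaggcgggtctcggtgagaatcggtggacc

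Across the 112 windows, ETS letters stood in 31.2%, against 17.8% of the 7680 windows of protein-coding genes with a promoter peak in the table and 11.6% of all 21263 protein-coding windows. NRF1 letters stood in 12.5% of the members' windows, against 5.5% and 3.5%. YY1 letters stood in 12.5%, against 4.2% and 3.1%. Sp1 letters stood in 42.0%, between the 33.9% of all windows and the 48.0% of windows of genes with a promoter peak. TATAAA within 50 bases before the start occurred in 0 of 112 windows and in 1.4% of windows of genes with a promoter peak. The mitoribosome windows held ETS letters in 34.6% and NRF1 letters in 11.5%, and the respiratory chain windows in 28.3% and 13.3%. All 6 mitoribosome genes with NRF1 letters were of the large subunit, and 0 of the 20 small-subunit windows held them. A match is a description of letters, not evidence of binding.

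**Figure D1:**
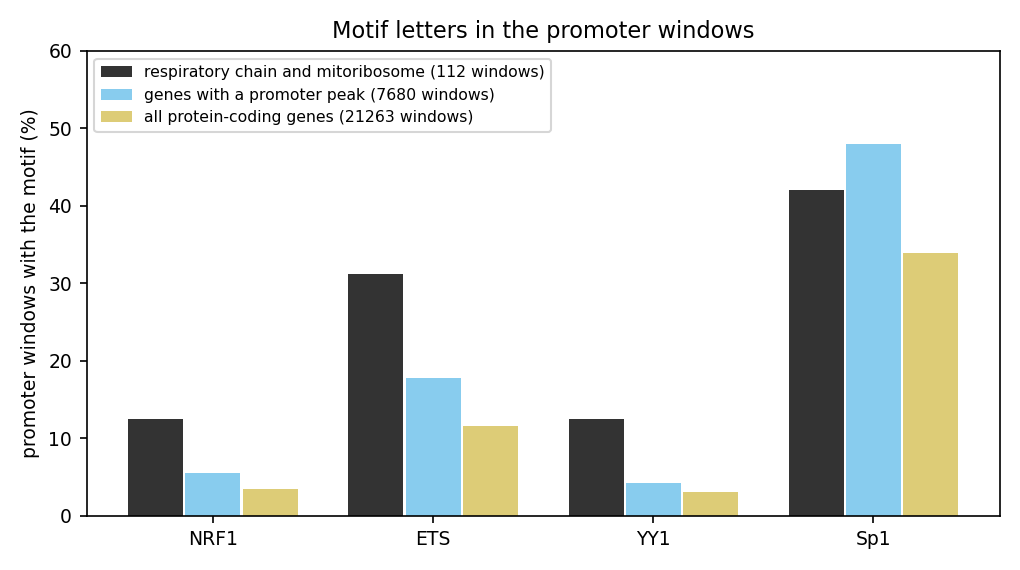
Share of 300-base promoter windows (%, y axis) that hold each motif on either strand, for respiratory chain and mitoribosome genes, protein-coding genes with a promoter peak in the table, and all protein-coding genes. For ETS the bars stand at 31.2%, 17.8% and 11.6%, and only for Sp1 is the members' bar below that of the genes with a promoter peak.

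Many of these genes start next to another gene. A protein-coding gene on the opposite strand started within 1 kb upstream for 24 of 103 member genes (23.3%), against 9.8% of protein-coding genes with a promoter peak. The partners included genes of the same system. Atp5j and Gabpa started 148 bases apart, Mrpl43 and Twnk, the mitochondrial DNA helicase, 116 bases apart, Mrps11 and Mrpl46 42 bases apart, and Mrpl47 and Ndufb5 308 bases apart. Where a peak lies between such starts, the authors' table gives it 1 symbol and its reads cannot be divided between the genes.

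Most member peaks lay at gene starts. By the authors' class or a distance of at most 3 kb from the start, 114 of 149 (76.5%) were promoter peaks, against 43.4% of all peaks, and 52 were annotated as intronic, against 13457 of all 22412. Member promoter peaks had a median width of 654.5 bases, against 557 for all promoter peaks. Per length, the strongest promoter peak of each gene had a median of 83.3 CPM (reads in a peak relative to all reads in peaks of its library, after TMM normalisation) per kb over 61 respiratory chain genes and 82.5 over 46 mitoribosome genes, against 83.7 over 7585 genes. By this measure the promoters were thus about as accessible as the typical promoter in the table. Levels per kb ran from 56.8 at Sdhaf3, an assembly factor of complex II, to 157 at Sdhb, with Mrpl34 at 148.

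The libraries held 762633 to 1267934 reads in peaks, 1.67% to 2.62% of the library totals behind the deposited RPKM values, and a member peak had a median of 37 to 56 reads per library. Promoter peaks took 54.9% to 56.4% of the reads in peaks in controls and 53.6% to 55.4% in Dyrk1b libraries, and member promoters 0.641% to 0.699% and 0.589% to 0.647%. Of hepatocyte markers, 5 of 12 had a peak, among them Alb, with a summed level of 383.9 to 539.3 CPM in controls and 406.2 to 416.8 CPM in Dyrk1b libraries. A negative log2 change was seen at 6 of their 7 peaks, against 10926 of all 22051 peaks tested, with a median of -0.13. Of 27 markers of other liver cells 7 had a peak, 0 of 4 for cholangiocytes. These 10 peaks summed to 323.1 to 376.4 CPM in controls and 368.9 to 435.5 CPM in Dyrk1b libraries, 8 of 10 had a positive log2 change, against 56.2% of all peaks outside promoters, and the median was 0.62. That of Lrat is a promoter peak. Several were weak, and of all peaks up to 25.2 CPM only 32.2% had a negative log2 change, with a median of 0.32. None of the marker peaks was called. The part of cell composition in the results below was not tested.

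No member peak passed the test of Dyrk1b overexpression against control. With edgeR's quasi-likelihood test and Benjamini-Hochberg adjustment over the 22051 peaks tested, 0 of 149 had an adjusted p under 0.05, the lowest being 0.132, and limma-trend and DESeq2 also called 0. DESeq2 gave no adjusted p for the Cox10 intron 3 and Mrpl33 peaks, however, and so could not call them. Over all peaks 7 were called (0.0317%), a count that was 4 without control 1, 3 without control 2, 1 without control 3 and 0 without Dyrk1b 3. Unadjusted p was under 0.05 at 12 members with a higher level in Dyrk1b libraries and 11 with a lower one, against 6.44% and 7.72% of all peaks, close to the same shares. The 12 became 7 without control 1 and 6 without Dyrk1b 1, and the 11 became 1 when counts were scaled by the library totals behind the RPKM values. All 3 Dyrk1b libraries lay above all controls at 9 members and below them at 22, against 9.53% and 9.97% of all peaks. In the authors' deposited table, p was under 0.05 at 13 members (8.72%, against 9.37% of all peaks), and their lowest FDR was 0.295.

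The respiratory chain and mitoribosome promoters had different medians. Taking the strongest promoter peak of each gene, the median log2 change was -0.17 over 61 respiratory chain genes, with 43 negative (70.5%), and -0.01 over 46 mitoribosome genes, with 23 negative, against -0.07 over all 7585 genes, of which 57.4% were negative. By mean level, the 37 respiratory chain promoter peaks from 53.1 CPM upward had a median of -0.22 and the 17 mitoribosome ones -0.21. Over all promoter peaks there it was -0.14. From 35.9 to 53.1 CPM the medians were 0.01 (17 peaks) and 0.11 (21), against -0.06. From 25.2 to 35.9 CPM they were -0.07 (8) and 0.06 (5), against 0.03, and below that -0.435 (4) and -0.407 (5), against 0.255. The summed promoter level of the respiratory chain was 4226.8, 3822.8 and 4135.3 CPM in controls 1 to 3 and 3845.9, 3661.8 and 3203.4 CPM in Dyrk1b libraries 1 to 3. That of the mitoribosome was 2605.3, 2546.1 and 2554.3 CPM against 2546.7, 2505.2 and 2361.1 CPM. In both, control 2 lay just below Dyrk1b 1, so the groups overlapped, and Dyrk1b 3 was the lowest library. Over all 7585 genes the sums were 461933.9, 482840.9 and 489914.9 CPM in controls and 471733.6, 460123.6 and 439086.8 CPM in Dyrk1b libraries. There too the groups overlapped and Dyrk1b 3 was the lowest. The respiratory chain median was -0.26 without Dyrk1b 1 and -0.02 under scaling by library totals, where the median of all genes stood at 0.10. The mitoribosome median changed sign among the alternatives. Under every alternative the respiratory chain median stayed below that of all genes, with a difference of -0.191 to -0.063, and whether it differs from that of the mitoribosome was not tested.

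**Figure D2:**
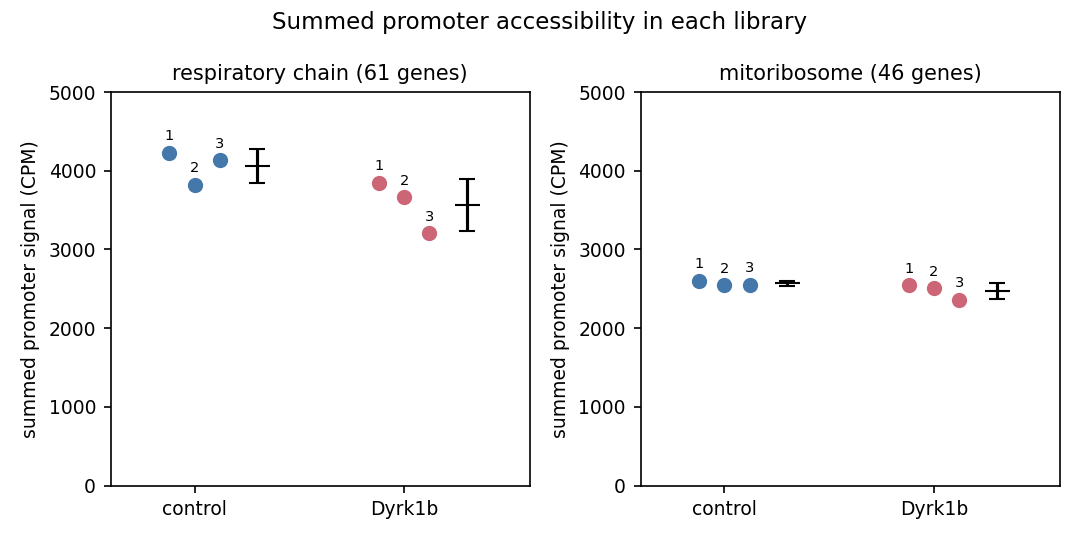
Summed level of the strongest promoter peak of each gene (CPM, y axis) in each library (points, numbered by replicate), with the mean and SD (n = 3 per group). In both panels the lowest control lies just under the highest Dyrk1b library, 3822.8 against 3845.9 CPM for the respiratory chain.

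Promoter peaks contributed 6 of the higher and 9 of the lower members with unadjusted p under 0.05, of 114, against 4.68% and 8.85% of all promoter peaks. Respiratory chain promoters gave 1 of the higher and 8 of the lower, of 66, and mitoribosome promoters 5 and 1, of 48. Peaks outside promoters gave 6 higher and 2 lower of 35, against 7.81% and 6.84%. At 12 genes with both kinds of peak, the other peak had the more positive change at 9 (75%), against 60.3% of 2551 genes in all. Change also varied with peak strength over the whole table. The 5513 peaks with the lowest mean, up to 25.2 CPM, had a median log2 change of 0.32, and the 5513 with the highest, from 53.1 CPM, one of -0.15.

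**Figure D3:**
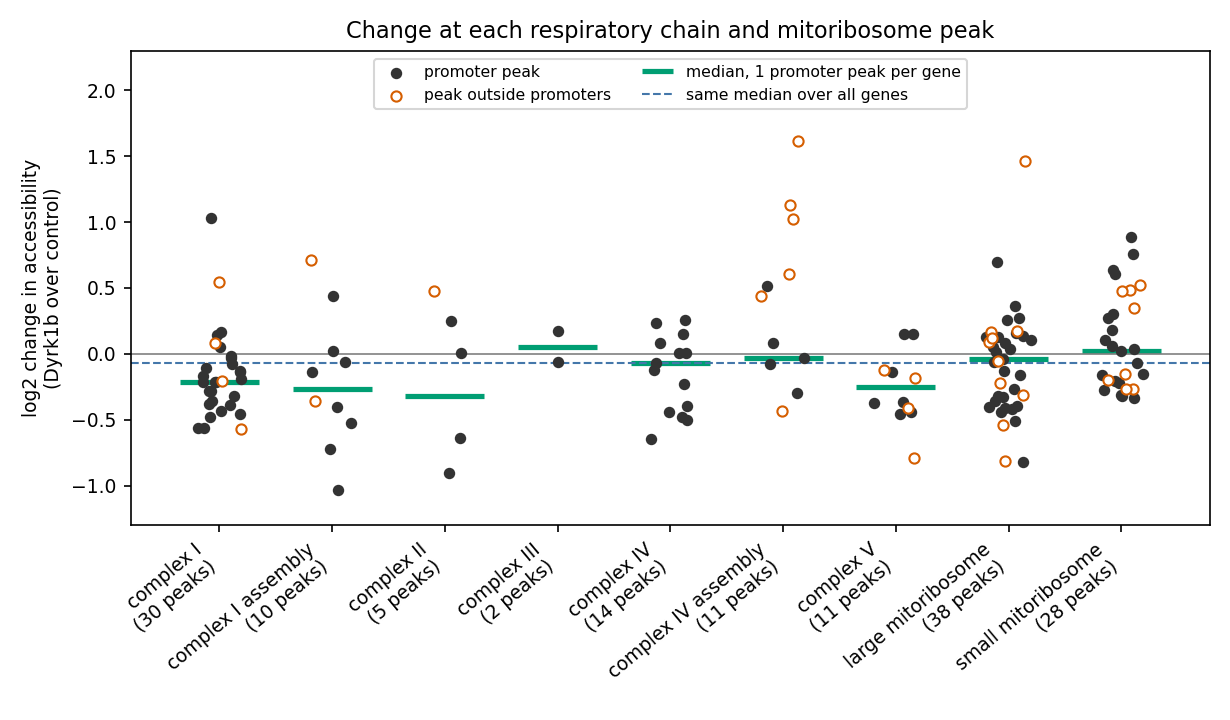
Log2 change in accessibility (Dyrk1b over control, y axis) at each of the 149 peaks by group, with promoter peaks filled and other peaks open. Green bars are medians over 1 promoter peak per gene and the dashed line is that median over all genes, -0.07. The 3 open points above 1 in complex IV assembly are introns of Cox10, and none of the points passed the threshold on adjusted p.

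Complex I takes electrons from NADH. Over 25 promoters the median log2 change was -0.22, 21 of them negative. It was -0.34 without control 2, while loess normalization gave -0.09 and library totals -0.10, both with 17 negative. By mean level, 17 of 17 complex I promoter peaks from 53.1 CPM upward were negative, 3 of 6 from 35.9 to 53.1 CPM, 2 of 2 from 25.2 to 35.9 CPM and 0 of 1 below, against 68.5%, 57.0%, 47.1% and 35.2% of all promoter peaks. The summed promoter level was 1913.5, 1577.9 and 1797.4 CPM in controls and 1604.4, 1596.6 and 1356.8 CPM in Dyrk1b libraries, so control 2 lay within the Dyrk1b range.

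The lowest p among subunits was at Ndufv1, the flavoprotein that binds NADH (promoter peak, chromosome 19, 4062551 to 4063364, at -151 bases from the start). Its reads were 100, 69 and 103 in controls and 52, 96 and 74 in Dyrk1b libraries. Dyrk1b 2 lay above control 2, so the groups overlapped. The level was 113 ± 27.6 CPM in controls and 77.2 ± 25.5 CPM in Dyrk1b libraries (mean ± SD over 3 libraries of a group, as below). The log2 change was -0.56 ± 0.23 (SE, adjusted p = 0.273 by edgeR). Ndufs7, an iron-sulphur subunit next to the quinone site, had 90.9 ± 12.9 CPM in controls and 67.0 ± 8.32 CPM in Dyrk1b libraries in its 5′ UTR peak (chromosome 10, 80084927 to 80085593), with no overlap of levels and a log2 change of -0.43 ± 0.23 (edgeR, adjusted p = 0.369). Ndufb4, an accessory subunit of the membrane arm, went the other way. Its weak peak in intron 1 of 2 (chromosome 16, 37473388 to 37473744) held 17, 15 and 4 reads in controls and 25, 30 and 33 in Dyrk1b libraries. The levels did not overlap, and the log2 change was 1.03 ± 0.43 (edgeR, adjusted p = 0.275). Without 1 library, the log2 change of Ndufv1 was -0.86 (Dyrk1b 2) or -0.36 (Dyrk1b 3) and that of Ndufb4 0.66 (control 3). That of Ndufs7 was -0.29 after loess normalization and -0.26 under library totals. By level, the top complex I peak was that of Ndufv2, which carries an iron-sulphur cluster next to Ndufv1, with 121 ± 13.4 CPM in controls and 106 ± 2.66 CPM in Dyrk1b libraries. The group as defined by symbol includes Ndufa4, since reassigned to complex IV, with a log2 change of -0.13, and its relative Ndufa4l2, with -0.28.

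Assembly factors of complex I build the enzyme without staying in it. Over their 8 promoters the median log2 change was -0.27, and 6 were negative. The median was -0.42 without Dyrk1b 1. Loess normalization gave -0.16 and library totals -0.11, both with 4 negative. Ndufaf2, which acts late in assembly, had 26, 21 and 26 reads in controls and 10, 8 and 27 in Dyrk1b libraries in exon 1 of 4 (chromosome 13, 108294893 to 108295230). After scaling for depth, Dyrk1b 3, the deepest library, also lay below every control, at 30.3 ± 4.72 CPM for controls and 14.3 ± 6.02 CPM for Dyrk1b libraries. The log2 change was -1.03 ± 0.42 (edgeR, adjusted p = 0.268). Ndufaf5, which hydroxylates an arginine of Ndufs7 and whose window is printed above with overlapping NRF1 letters, had 100 ± 27.9 CPM in controls and 69.6 ± 5.21 CPM in Dyrk1b libraries at its promoter (chromosome 2, 140011960 to 140013094), a log2 change of -0.53 ± 0.23 (edgeR, adjusted p = 0.291). Ndufaf7, a methyltransferase needed for assembly, had 42.8 ± 3.33 and 26.5 ± 6.33 CPM in its 5′ UTR peak (chromosome 17, 79244385 to 79244801), a log2 change of -0.72 ± 0.32 (edgeR, adjusted p = 0.303). The levels of the groups did not overlap at either gene, and the log2 change of Ndufaf5 was -0.27 without control 1. The top peak by level, at Ndufaf3, had 118 ± 19.8 and 113 ± 10.3 CPM and a log2 change of -0.06.

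Complex II, succinate dehydrogenase, links the citric acid cycle to the chain and is encoded by nuclear genes alone. Sdhb, its iron-sulphur subunit, had the lowest p of any respiratory chain peak, in the 5′ UTR 57 bases from the start (chromosome 4, 140688369 to 140688773). Its reads were 84, 66 and 50 in controls and 40, 47 and 39 in Dyrk1b libraries. All Dyrk1b libraries lay below all controls, at 82.0 ± 15.7 against 45.0 ± 13.0 CPM. The log2 change was -0.90 ± 0.25 (edgeR, unadjusted p = 0.000705, adjusted p = 0.132), and over the alternatives it ran from -1.04 to -0.65 with adjusted p from 0.0982 to 0.543. Sdhc, a membrane anchor, had 38, 47 and 39 reads in controls and 26, 21 and 52 in Dyrk1b libraries in intron 1 of 5 (chromosome 1, 170977675 to 170978247), with levels that did not overlap and a log2 change of -0.64 ± 0.29 (edgeR, adjusted p = 0.312). Sdha, the flavoprotein that oxidises succinate, had overlapping levels of 43.3 ± 1.48 and 51.3 ± 9.68 CPM and a log2 change of 0.25 ± 0.27 (chromosome 13, 74498016 to 74498747; edgeR, adjusted p = 0.685). It was 0.11 without Dyrk1b 3, 0.39 without Dyrk1b 2 and 0.42 under library totals. Sdhaf3, with the top level of the group, had 67.2 ± 15.4 and 69.0 ± 29.6 CPM. Of the 4 promoters, 2 had negative and 2 had positive values.

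Complex III passes electrons from ubiquinol to cytochrome c, and of its genes only the core proteins Uqcrc1 and Uqcrc2 had a peak. Uqcrc2 had 91.2 ± 9.72 CPM in controls and 102 ± 23.7 CPM in Dyrk1b libraries (chromosome 7, 120234042 to 120234975), a log2 change of 0.17 ± 0.22. Uqcrc1 had 106 ± 17.2 and 102 ± 9.32 CPM (chromosome 9, 108765206 to 108766475), a log2 change of -0.06 ± 0.21. Levels overlapped at both, with adjusted p of 0.734 and 0.918 by edgeR, and the sign at Uqcrc1 changed under loess normalization (0.117), library totals (0.089) and without control 1 (0.012) or control 2 (0.004). The value at Uqcrc2 ran from 0.01 without Dyrk1b 2 to 0.37 under library totals.

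Complex IV, cytochrome c oxidase, reduces oxygen. Its 11 subunit promoters had a median log2 change of -0.07, against -0.07 over all genes, and ran from -0.29 without control 2 to 0.04 without Dyrk1b 3 and 0.06 under library totals. Cox7a2l, which joins complexes into supercomplexes and bears a subunit name, had 64, 62 and 62 reads in controls and 36, 48 and 81 in Dyrk1b libraries in intron 1 of 2 (chromosome 17, 83821636 to 83822245). Scaled for depth, 77.9 ± 4.72 stood against 54.3 ± 7.31 CPM without overlap, a log2 change of -0.50 ± 0.24 (edgeR, adjusted p = 0.328). The ubiquitous form of subunit 4, Cox4i1, had 69.0 ± 10.7 and 49.3 ± 8.26 CPM (chromosome 8, 121394697 to 121395240) and a log2 change of -0.48 ± 0.25 (edgeR, adjusted p = 0.371), again without overlap. Under library totals these values were -0.32 and -0.30. Cox7c, a small membrane subunit, had 79.2 ± 12.4 and 59.0 ± 8.35 CPM (chromosome 13, 86194357 to 86195149), with overlap and a log2 change of -0.44 ± 0.24 (edgeR, adjusted p = 0.383). The top level was at Cox7a2, another small subunit, with 92.4 ± 9.97 and 70.8 ± 21.4 CPM.

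Among the assembly factors of complex IV, Cox10 carried most of the positive values. Cox10 makes heme O, the precursor of the heme A that complex IV needs, and its gene held 5 peaks. In intron 3 of 6 (chromosome 11, 63957568 to 63957992), 12512 bases from the start, reads were 12, 5 and 7 in controls and 20, 27 and 45 in Dyrk1b libraries. All Dyrk1b libraries lay above all controls, at 9.85 ± 4.02 against 30.3 ± 4.03 CPM. The log2 change was 1.61 ± 0.46 (edgeR, unadjusted p = 0.000798, adjusted p = 0.135), from 1.36 to 1.98 over the alternatives with adjusted p from 0.131 to 0.353.

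The other Cox10 peaks are outside the naming rule and are named with their values known. In intron 4 (63925373 to 63925845) reads were 11, 17 and 9 against 30, 23 and 38, a log2 change of 1.02 ± 0.41 without overlap (edgeR, adjusted p = 0.261). Of the 2 peaks in intron 5, the one at 63868518 to 63868902 had a log2 change of 1.13 ± 0.44 (edgeR, adjusted p = 0.253) and the one at 63867705 to 63867926 of 0.44 ± 0.58 (edgeR, adjusted p = 0.747), both with overlap. The promoter peak (63969871 to 63970654) had 63.1 ± 6.72 and 67.2 ± 9.32 CPM, a log2 change of 0.08 ± 0.24. The change thus had a value near 0 at the start of the gene and positive values at all 4 intronic peaks, which are weak and come from the part of the table where the median over all peaks was 0.32.

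**Figure D4:**
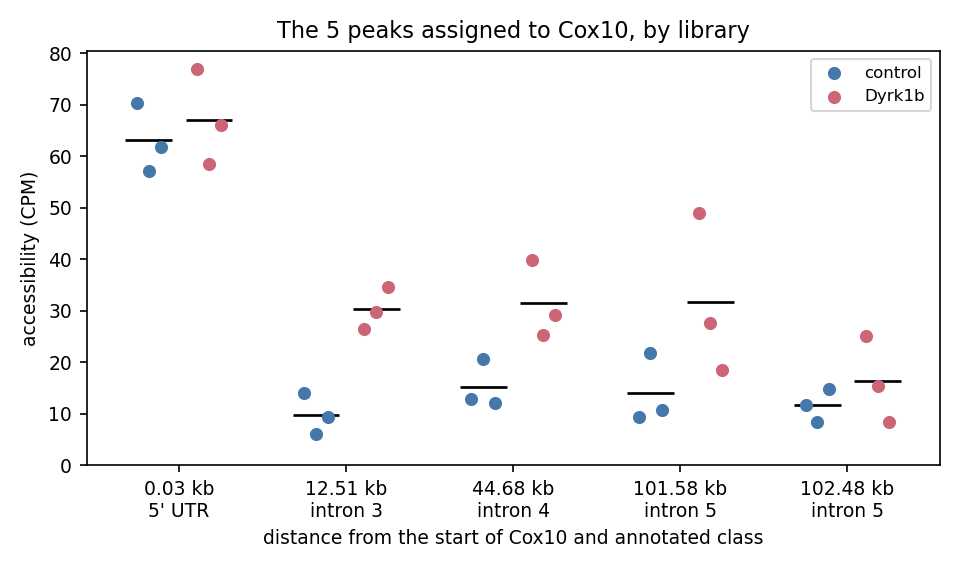
Level (CPM, y axis) of the 5 Cox10 peaks in each library (points; bars are group means, n = 3 per group), ordered by distance from the gene's start (x axis). The promoter peak averages 63.1 CPM in controls and 67.2 CPM in Dyrk1b libraries, and in introns 3 and 4 every Dyrk1b point is above every control.

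Cox16, which helps to insert copper into a mitochondrially encoded subunit, had 37.1 ± 8.90 CPM in controls and 57.4 ± 17.1 CPM in Dyrk1b libraries (chromosome 12, 81531403 to 81532001), a log2 change of 0.61 ± 0.28 with overlap (edgeR, adjusted p = 0.323). The peak lies 47977 bases from the start of a gene model of 174046 bases, so its assignment to Cox16 rests on that model. Cox19, a copper handling factor, had 44.5 ± 13.2 and 63.8 ± 7.15 CPM (chromosome 5, 139329721 to 139330371), a log2 change of 0.52 ± 0.26 without overlap (edgeR, adjusted p = 0.362). The value at Cox16 was 0.36 without Dyrk1b 1 and that at Cox19 0.30 without control 3. Cox18, which inserts a subunit into the inner membrane, had the top level, 95.1 ± 5.86 and 93.9 ± 16.6 CPM. Over the 5 promoters of these assembly factors the median was -0.03, from -0.14 without Dyrk1b 2 to 0.10 without Dyrk1b 3.

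Complex V makes ATP. Its 6 promoters had a median log2 change of -0.25, 4 of them negative. All 4 peaks outside promoters were negative, against 5421 of the 12376 such peaks tested over the whole table. They are assigned to Atp5d, Atp5h and Atp5o, at distances from the start that are given below. Without control 2 the promoter median was -0.07, with 3 negative, and that of all genes -0.07. It was -0.13 without Dyrk1b 3 or after loess normalization and -0.08 under library totals. The central stalk subunit gene Atp5d had 50, 36 and 39 reads in controls and 24, 34 and 28 in Dyrk1b libraries in a 5′ UTR peak 3005 bases from the start of its model (chromosome 10, 79977247 to 79977695). Levels did not overlap, at 51.6 ± 7.48 and 30.3 ± 8.11 CPM, and the log2 change was -0.79 ± 0.30 (edgeR, adjusted p = 0.239). Atp5g2, which encodes the proton-carrying c subunit of the rotor, had 107 ± 15.6 and 78.2 ± 4.20 CPM (chromosome 15, 102579212 to 102579951), a log2 change of -0.46 ± 0.22 without overlap (edgeR, adjusted p = 0.332). Atp5j, a peripheral stalk subunit, had 98.3 ± 22.9 and 73.4 ± 18.8 CPM (chromosome 16, 84631469 to 84632401), a log2 change of -0.44 ± 0.23 with overlap (edgeR, adjusted p = 0.371). The authors' annotation has the Atp5j model on the plus strand, while the RefSeq window is on the minus strand. The value at Atp5j was -0.22 without Dyrk1b 3 and -0.29 without control 1 or after loess normalization, and that at Atp5g2 was -0.29 under loess normalization or library totals. The top level, 165 ± 39.0 and 146 ± 11.7 CPM, was at a peak assigned to Atp5h, another stalk subunit, but it lies downstream of that gene, 3615 bases from the start of a model of 1330 bases. Atp5o peaks lie 197795 and 238137 bases from the start of a model of 242585 bases, so they may not belong to the gene.

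**Figure D5:**
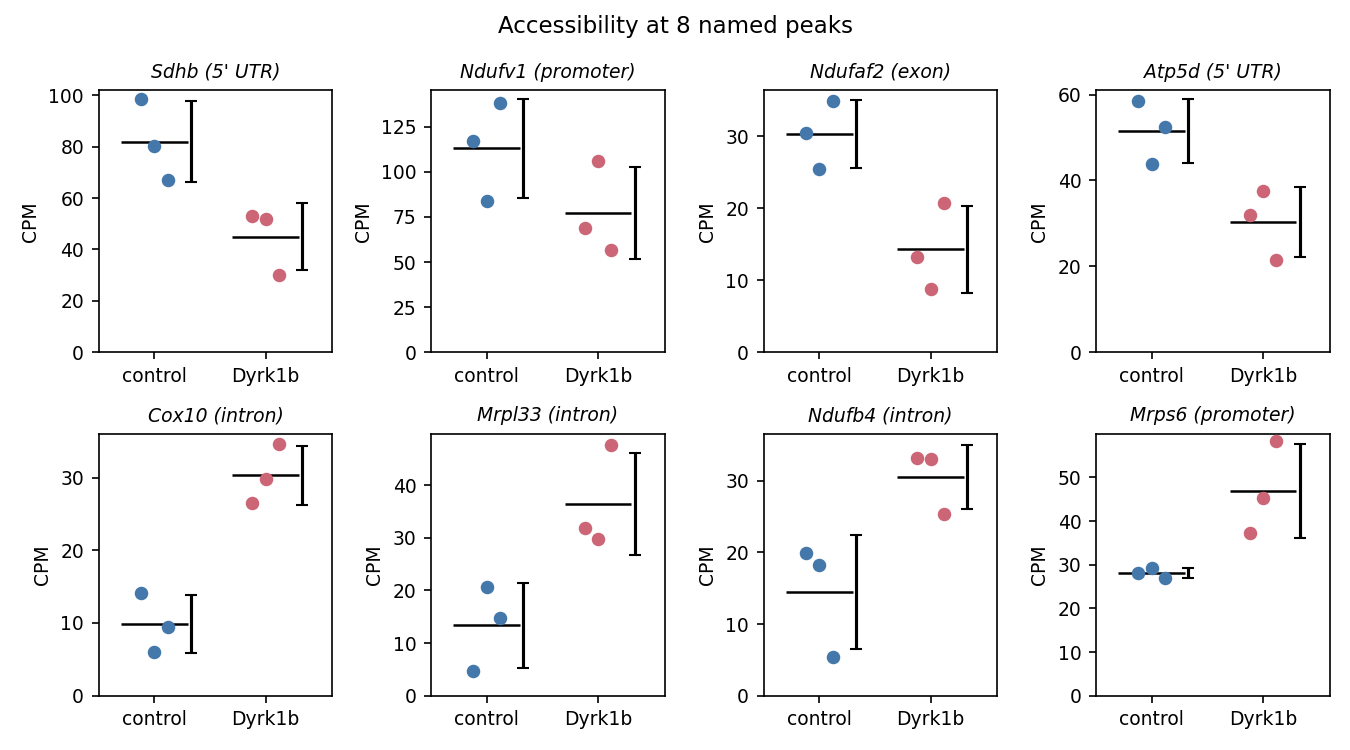
Level (CPM, y axis, each from 0) in each library (points) at 8 named peaks, with group means (lines) and SD (bars to the right, n = 3 per group). The Sdhb groups average 82.0 and 45.0 CPM without overlap, those of Cox10 stand at 9.85 and 30.3 CPM, and at Ndufv1 the groups overlap. Adjusted p was 0.132 or higher at each.

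The large mitoribosomal subunit forms peptide bonds. Over its 27 promoters, 13 values were positive and 14 negative, and the median was -0.04 on the log2 scale, from -0.12 without control 2 to 0.05 without control 1 and 0.13 under library totals. Mrpl33 had the lowest unadjusted p of all members. In intron 1 of 3, 5707 bases from the start (chromosome 5, 31759692 to 31760287), reads were 4, 17 and 11 in controls and 24, 27 and 62 in Dyrk1b libraries. All Dyrk1b libraries lay above all controls, at 13.4 ± 8.07 against 36.4 ± 9.75 CPM. The log2 change was 1.47 ± 0.41 (edgeR, unadjusted p = 0.000645, adjusted p = 0.132), from 1.05 to 1.95 over the alternatives with adjusted p from 0.119 to 0.402. The model of Mrpl33 spans 105035 bases. The peak is weak, with a mean of 24.9 CPM over all libraries, and all peaks outside promoters up to 25.2 CPM had a median log2 change of 0.34. Mrpl36, a small protein of this subunit, had 34, 52 and 40 reads against 28, 25 and 33 in intron 2 of 2 (chromosome 13, 73479104 to 73479603), without overlap of levels and with a log2 change of -0.82 ± 0.30 (edgeR, adjusted p = 0.226). Mrpl43, whose RefSeq start lies close to that of Twnk, had 35.97 ± 9.24 and 58.9 ± 11.5 CPM in a 3′ UTR peak 867 bases from its start (chromosome 19, 44993744 to 44994284), a log2 change of 0.70 ± 0.28 with overlap (edgeR, adjusted p = 0.268). Mrpl34 had the top level, 121 ± 25.1 and 99.8 ± 21.5 CPM.

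The small subunit reads the messenger RNA. Its 19 promoters had a median log2 change of 0.02, 10 positive and 9 negative, and 4 of its 20 promoter peaks had an unadjusted p under 0.05, all with a higher level in Dyrk1b libraries, against 4.68% of all promoter peaks. The median was -0.08 without Dyrk1b 1, -0.07 without control 3 and 0.19 under library totals. Mrps6 had 24, 24 and 20 reads in controls and 28, 41 and 76 in Dyrk1b libraries at its promoter (chromosome 16, 91854788 to 91855344). Levels were 28.1 ± 1.14 and 46.9 ± 10.7 CPM without overlap, a log2 change of 0.76 ± 0.31 (edgeR, adjusted p = 0.267). Mrps10 had 16.4 ± 2.996 and 31.1 ± 7.34 CPM in intron 1 of 6 (chromosome 17, 47682346 to 47682644), a log2 change of 0.89 ± 0.40 without overlap (edgeR, adjusted p = 0.309). The Mrps10 peak is weak, with a mean of 23.7 CPM over all libraries, and all promoter peaks up to 25.2 CPM had a median of 0.255. Mrps2 had 38.2 ± 12.7 and 58.6 ± 12.01 CPM (chromosome 2, 28357939 to 28358734), a log2 change of 0.64 ± 0.28 with overlap (edgeR, adjusted p = 0.3), and of 0.42 without control 1. The fourth, Mrps11, whose start faces that of Mrpl46, had a log2 change of 0.60 ± 0.29 (edgeR, adjusted p = 0.331) and is named after its value was seen. All 3 proteins of the rule, Mrps2, Mrps6 and Mrps10, are conserved from bacterial ribosomes. Mrps28 had the top level, 120 ± 18.4 and 95.9 ± 15.9 CPM. Mrps36, which is now known as a part of the 2-oxoglutarate dehydrogenase complex, had a log2 change of -0.34, and the Mrps34 peak, 40702 bases from the gene's start, one of -0.20.

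The members' promoters were also split by the motif letters of their windows, with no test of any difference. Windows and peaks were matched by gene symbol only, so a peak need not cover the letters. The Atp5g2 peak, for example, lies in intron 1, 1206 bases from the start. For NRF1 the median log2 change was -0.40 over 13 member genes with them, 11 negative, and -0.07 over 78 without, and the median level was 63.5 CPM with and 51.6 CPM without, where stronger peaks had more negative values over the whole table. Over all genes with a promoter peak and a window, the medians were -0.17 over 383 and -0.07 over 5673. Sdhb, Ndufa8 and Ndufaf5 had the lowest values of the 13, at -0.90, -0.57 and -0.53, and Mrpl10 the highest, at 0.14. The member median with NRF1 letters ran from -0.47 to -0.24 in the alternatives tried, which were chosen after seeing the data, and was -0.27 without control 1. For YY1 and for Sp1 the medians were -0.14 with and -0.07 without the letters, and for ETS -0.03 and -0.13.

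Genes that govern or serve this system were read from 3 lists, from which the genes below were picked with their values known, and 0 of their peaks passed the threshold (edgeR, adjusted p of 0.107 or higher). Of 25 regulators of mitochondrial biogenesis and mitochondrial DNA expression, 17 had a promoter peak, with a median log2 change of -0.06. Nrf1, the factor that binds the letters above, had 41, 49 and 39 reads in controls and 46, 85 and 114 in Dyrk1b libraries near its start, without overlap of levels and with a log2 change of 0.61 ± 0.24 (edgeR, adjusted p = 0.258). The coactivator gene Ppargc1b had a log2 change of 0.79 ± 0.32 at its promoter peak and of 0.42, 0.14, -0.01, -0.02 and -0.37 at intron peaks. Ppargc1a had intron peaks only, with values from -0.35 to 0.18. Polrmt, the mitochondrial RNA polymerase, had a log2 change of -0.67 ± 0.29. Tfam, which packages mitochondrial DNA, had -0.37 ± 0.24, and Esrra, a nuclear receptor that drives these genes, 0.01 ± 0.21. Lrpprc, which stabilises mitochondrial messenger RNA, had -0.85 ± 0.37 at an intron peak 2078 bases from the start, with overlap. Its strongest promoter peak, at -240 bases, had -0.31 ± 0.25, and peaks farther into the gene had -0.15 and 0.02.

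Of 41 further assembly factors 23 had a promoter peak, with a median log2 change of -0.17, 15 negative. Atpaf2, which chaperones a subunit of complex V, had 68, 49 and 39 reads against 23, 42 and 34, a log2 change of -0.91 ± 0.28 without overlap (edgeR, adjusted p = 0.16). Higd2a, an assembly factor of complex IV, had a log2 change of -0.70 ± 0.23. An intron of Acad9, which helps to build complex I, had 1.14 ± 0.31. Of 44 translation factors and further ribosome proteins 31 had a promoter peak, with a median of -0.08. Tars2, the mitochondrial threonyl-tRNA synthetase, had -0.69 ± 0.26. Dhx30, an RNA helicase of mitoribosome assembly, had 0.73 ± 0.26 at the weaker of its promoter peaks and 0.39 ± 0.24, with overlap, at the stronger. The lowest adjusted p of the lists was at a 3′ UTR peak of Lars2, the mitochondrial leucyl-tRNA synthetase, 95125 bases from the start. Its reads were 70, 21 and 22 in controls and 12, 10 and 29 in Dyrk1b libraries, a log2 change of -1.45 ± 0.38 (edgeR, adjusted p = 0.107). The other Lars2 peaks had positive values, 0.34 at the promoter and 1.27, 0.94 and 0.35 in introns. In the main fit, promoters of assembly factors outside the members had a median close to that of the respiratory chain genes, -0.17. The promoter median of translation factors was close to that of all genes. Over all peaks of each list the medians were -0.10 for assembly factors and 0.09 for translation factors, against 0.005 over all peaks tested. The list medians were not computed under the alternatives, and no difference between the lists was tested.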

How the data were processed

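The authors deposited 1 table of peaks with whole-read counts per peak and library, from which their RPKM values follow by peak length and a library total. Per the file headers it also holds the authors' log2 ratio, p-value and FDR per peak and the annotation used here for symbol, class and distance to the start. The submitters' processing notes name Bowtie2, DiffBind, ChIPseeker and the build mm10, with no versions. Of 120 member genes, 6 started within 2 kb of their GRCm38 position and the median shift was 112.9 kb, so the build of the peak coordinates is not settled and they are given unconverted. Whether their starts count from 0 or 1 is not stated, and they are never joined to the GRCm38.p6 promoter windows, which are matched to peaks by gene symbol only. No count is under 1. Not given in the sources used here are the peak caller, duplicate handling and any transposase shift.

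The test was that of edgeR 4.0.16 under R 4.3.3 on the deposited counts (TMM, filterByExpr, quasi-likelihood test, no covariate, Benjamini-Hochberg over all peaks, threshold 0.05). The filter left 22051 peaks, with all 149 members, and removed 361. CPM levels use TMM-normalised reads in peaks, and ± is the SD of 3 libraries or the SE of a log2 change. The common biological coefficient of variation was 19.9%. Alternatives were other scalings, no filter, limma-trend (limma 3.58.1), DESeq2 1.42.0, a replicate block and leaving out each library. No 2 libraries agreed within sampling noise (chi-square over its degrees of freedom 2.18 to 4.4). The members and lists were chosen with earlier results of these data known. The genes named are, in each of 9 groups, the 3 with the lowest unadjusted p, and for level the peak with the highest mean. Genes of the 3 pathway lists and the members said to be outside this rule were named with their values known.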

Additional observations from a re-analysis of the deposited data

How the results depend on the processing

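No alternative called a member peak. The count of all peaks called, 7, was 4 under scaling by reads in peaks only, 3 after loess normalization, 1 under library totals behind the RPKM values, 2 with limma-trend and 19 with DESeq2, and 0 to 10 without 1 library. Members with unadjusted p under 0.05 numbered 12 higher and 11 lower, 6 to 11 and 8 to 14 without 1 library, and 1 lower under library totals. The median log2 change of respiratory chain promoters, -0.168, was -0.065 after loess normalization, -0.016 under library totals, and -0.259 to -0.127 without 1 library. That of mitoribosome promoters, -0.009, was 0.158 under library totals and -0.094 to 0.037 without 1 library. Library totals moved the median of all peaks by 0.166. The sign of Uqcrc1 reversed after loess normalization (0.117), under library totals (0.089), and without control 1 or 2 (0.012 and 0.004), with a range of -0.186 to 0.012 without 1 library. The cause was not tested. DESeq2 gave no adjusted p for the Cox10 intron 3 and Mrpl33 peaks, so it could not call them, and their ranges of adjusted p leave DESeq2 out.

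Replicate numbers are shared between the groups, but same-numbered libraries did not deviate together, with correlations of -0.01, -0.014 and 0.007, against -0.024 to 0.032 for other pairings. With 3 libraries per group and few reads per peak, such values cannot exclude that the numbers pair the samples. With a replicate block, 7 peaks and 0 members were called, 12 members were higher and 12 lower, and the medians were -0.144 and 0.007. A median of 37 to 56 reads per member peak and library limits the precision, and changes too small for it were not detectable at this depth.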

Other observations

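Several genes that are central to these complexes are the symbol of no peak in the table. They include the ATP synthase catalytic core genes Atp5a1 and Atp5b and the Rieske iron-sulphur protein gene Uqcrfs1 of complex III. In all, 67 of 187 family genes had none, 43 of 109 in the respiratory chain and 24 of 78 in the mitoribosome. A missing peak does not show a closed promoter, since only 2 of 12 hepatocyte markers had a promoter peak in these liver libraries. Each peak carries 1 symbol, so a gene such as Mrpl46 or Ndufb5, whose RefSeq start faces that of Mrps11 or Mrpl47, can lie at a peak that bears its neighbour's name. The accessibility of those genes was not analysed here.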
